A study of Mus musculus with 2 samples.

Results

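The unfolded protein response and its secretory folding machinery were followed here as 33 named genes in mouse liver. The genes were taken by symbol from single-cell count tables that list 33696 genes. All 33 symbols were found, on 34 entries, because Ddit3 is listed under a pair of gene IDs and the second of these had no reads. Liver tissue of mice labelled SLC22A18-/- gave one library and liver tissue of mice labelled SLC22A18+/+ gave the other, with 1 library per genotype. They are called KO-labelled and WT here. Slc22a18 encodes a membrane transporter of the solute carrier family. The labels give no strain, age, sex, number of animals, treatment or deleted exons. With 1 library per genotype there is no replicate check and no test between genotypes. The printed 95% intervals cover the counting error of unique molecules (UMIs) only. An effect of genotype cannot be told apart here from other differences between the livers or their handling.

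The endoplasmic reticulum is the compartment in which secreted and membrane proteins are folded, and hepatocytes and plasma cells load it heavily. When unfolded protein builds up there, sensors in its membrane start the unfolded protein response. IRE1 alpha (encoded by Ern1) splices the Xbp1 mRNA so that it yields an active transcription factor. PERK (Eif2ak3) slows translation and favours Atf4 synthesis, and ATF6 is cut in the Golgi to release a transcription factor. Their targets include the chaperone BiP (Hspa5), its cochaperones, disulfide isomerases, and the machinery that sends misfolded proteins to the proteasome. Creb3l3 encodes CREBH, a membrane-bound transcription factor of hepatocytes and intestine that is cut like ATF6. Reads from the 3′ end of transcripts cannot show whether Xbp1 mRNA was spliced, so levels below are those of all Xbp1 transcripts.

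Sequence near the start sites showed what a group of the members share. The ER stress response element (ERSE), the binding motif of ATF6 and XBP1 with the factor NF-Y, was searched on both strands as CCAAT and CCACG with 9 bases of any kind between them, in RefSeq promoters running from 250 bases before to 50 bases after each start (GRCm38.p6). It was present in 9 of the 29 members with a promoter entry (31.0%), against 37 of all 27025 genes (0.137%). The related ERSE-II, searched as ATTGG and CCACG with 1 base of any kind between them, was present in Herpud1 and Dnajb11 (6.90% of the members) and in 12 genes overall (0.0444%). The 2 motifs did not share a match. A full ATF6 site, TGACGTGG, was in none of the 29 promoters and in 0.714% of all genes. The C/EBP-ATF element TTNCATCA, bound by ATF4, was in Herpud1 and Trib3 (6.90%) and in 4.51% of all genes. On the strand of the gene alone, ERSE remained in 6 members. Atf6, Hyou1, Manf and Derl1 had no promoter entry.

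Stretches that hold the matches before the start are shown for 10 of the 11 genes because they are the feature that sets these promoters apart from nearly all others. The capitals mark the ERSE or ERSE-II match, read 5′ to 3′ on the strand of the gene. A match that begins with CGTGG lies on the opposite strand.
Hspa5, chr2:34772005-34772063, plus strand: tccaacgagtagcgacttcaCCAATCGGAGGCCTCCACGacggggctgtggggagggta
Hsp90b1, chr10:86705513-86705676, minus strand: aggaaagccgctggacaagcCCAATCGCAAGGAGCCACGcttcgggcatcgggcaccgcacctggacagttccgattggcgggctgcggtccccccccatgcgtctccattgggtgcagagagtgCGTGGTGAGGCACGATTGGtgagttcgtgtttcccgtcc
Dnajc3, chr14:118937807-118937865, plus strand: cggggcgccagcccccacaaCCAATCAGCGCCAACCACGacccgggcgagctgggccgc
Creld2, chr15:88819500-88819558, plus strand: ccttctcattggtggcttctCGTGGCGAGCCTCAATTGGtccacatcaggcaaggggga
Pdia6, chr12:17266471-17266529, plus strand: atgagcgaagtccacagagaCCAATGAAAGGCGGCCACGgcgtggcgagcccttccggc
Calr, chr8:84847055-84847113, minus strand: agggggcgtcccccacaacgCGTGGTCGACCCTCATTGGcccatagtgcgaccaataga
Canx, chr11:50325780-50325838, minus strand: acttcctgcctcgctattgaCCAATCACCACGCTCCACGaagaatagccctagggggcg
Syvn1, chr19:6046512-6046570, plus strand: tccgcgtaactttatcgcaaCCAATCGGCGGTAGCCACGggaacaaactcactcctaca
Derl3, chr10:75893222-75893280, plus strand: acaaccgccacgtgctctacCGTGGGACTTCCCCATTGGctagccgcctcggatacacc
Herpud1, chr8:94386357-94386407, plus strand: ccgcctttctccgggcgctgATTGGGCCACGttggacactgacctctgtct
Hsp90b1, which encodes the chaperone GRP94, held a pair of ERSE matches, at -212 to -194 and at -107 to -89 from its start. In Hspa5 the match lay at -65 to -47, and in Syvn1 at -44 to -26. The ERSE-II of Dnajb11, not printed, lay just after the start, at 7 to 17. A match is a description of these letters and does not show that a factor bound there.

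Filtering left 11155 KO-labelled cells (median depth 5865 UMIs) and 12029 WT cells (5362 UMIs). The libraries shared 38 cell barcodes, and without those cells every hepatocyte ratio of a measured member stayed within its own interval. CPM is the share of a class's UMIs that fall on a gene, on the usual scale. Slc22a18 had 52.6 CPM in KO-labelled and 57.5 CPM in WT hepatocytes, a ratio of 0.915 (0.850 to 0.984). Slc22a18 levels were 5.88 against 12.2 CPM in Kupffer cells. In endothelial cells they were 1.40 against 4.15 CPM (33 and 109 UMIs), a ratio of 0.338 (0.222 to 0.503). The transcript was therefore not depleted in KO-labelled hepatocytes, and 3′ reads outside a deleted part would not show a deletion. Every direction given below is between the library labelled KO and the library labelled WT. Cells were assigned to 12 classes, of which 7 had at least 100 cells in each library and were compared. Every marker of a class was found in at least 10% of its cells, except that 7 and 8 of 10 were in NK/ILC1 cells and 6 and 7 of 9 in conventional dendritic cells of KO-labelled and WT. Clusters with markers of more than one class, 18.6% of KO-labelled and 19.4% of WT cells, stayed unnamed. One of them, cluster 17, had stellate and hepatocyte markers and held 383 and 351 cells.

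Each cell class had its own set of high members. Of the 33 genes, 8 were highest in plasmacytoid dendritic cells (pDC) of both libraries, 4 in hepatocytes, 3 in B cells, 3 in stellate cells or fibroblasts, and 2 each in Kupffer cells and conventional dendritic cells (cDC). Some of these classes held fewer than 100 cells in a library, which limits their precision. All levels are CPM of the summed UMIs of a class.

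**Figure D1:**
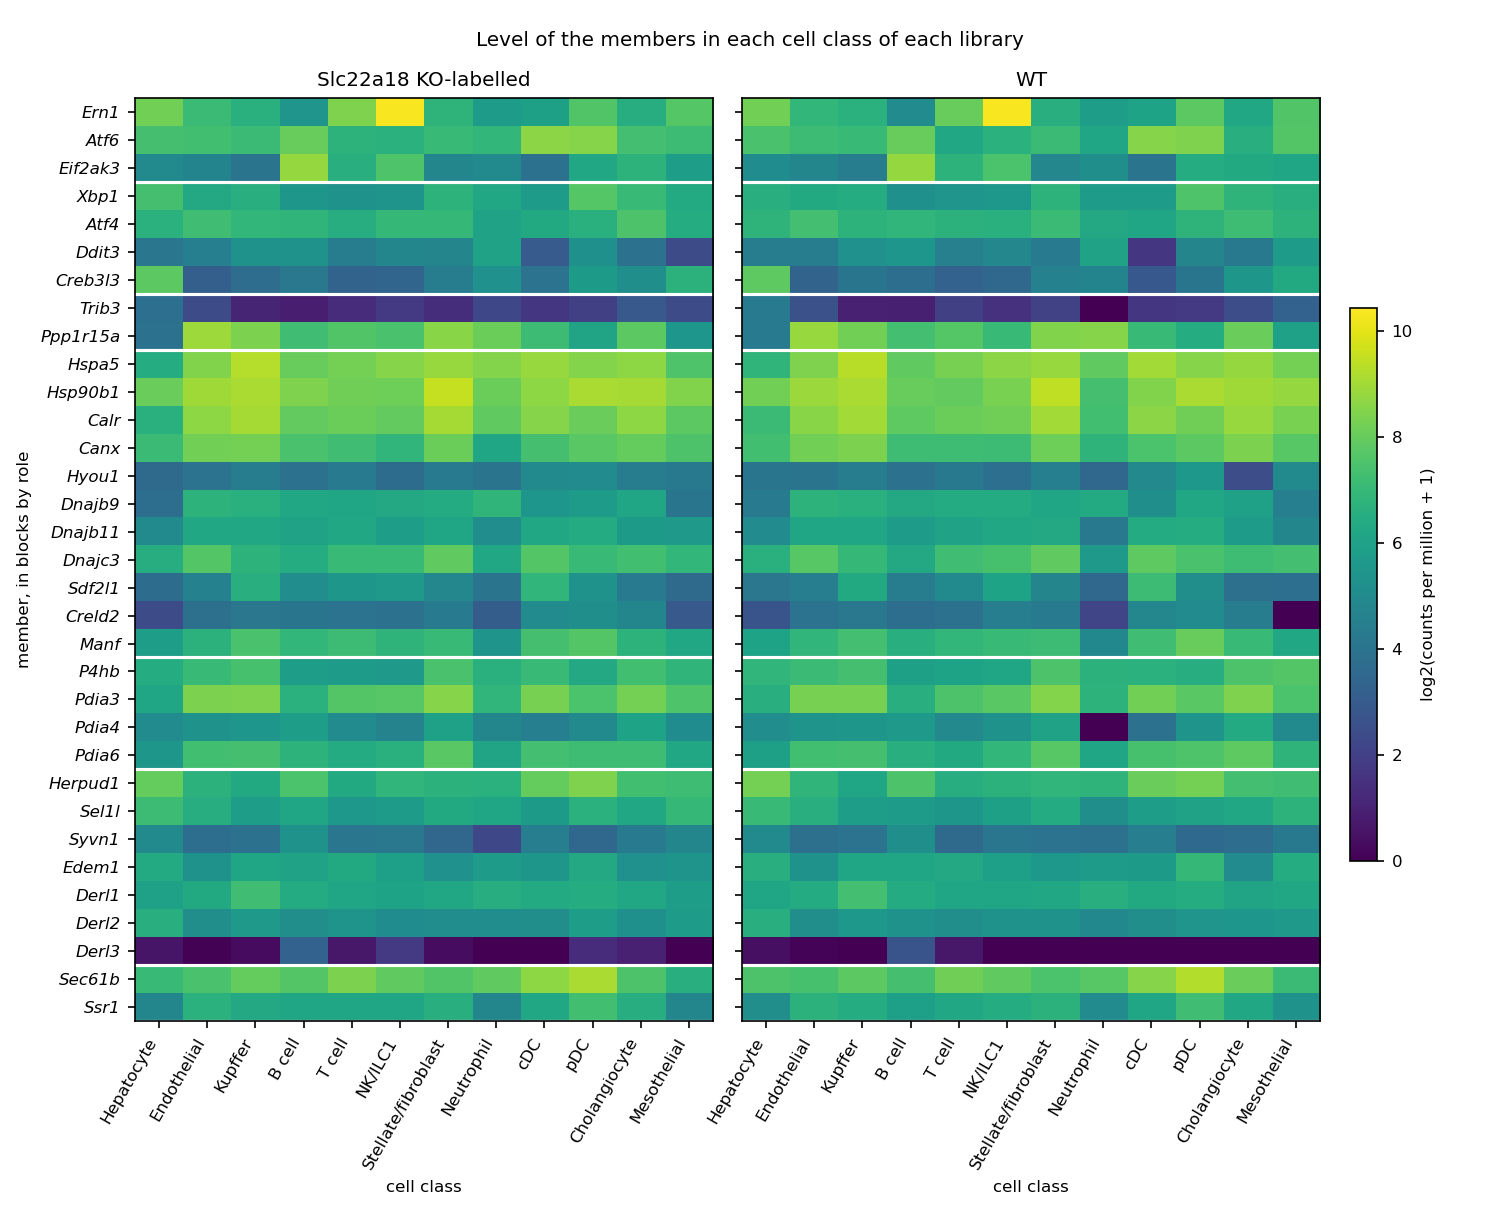
Level of the 33 members (rows, in blocks by role from sensors at the top to translocation at the bottom) in 12 cell classes (columns) of the KO-labelled and the WT library, as log2(CPM + 1) of summed UMIs. Ern1 is brightest in NK/ILC1 cells (1319 CPM KO-labelled, 1314 CPM WT), and Trib3 and Derl3 are dark in nearly every class.

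The sensors peaked in different cells. Ern1 reached 1319 CPM (1242 to 1400) in KO-labelled NK cells and type 1 innate lymphoid cells (NK/ILC1) and 1314 CPM (1248 to 1383) in WT. T cells had 345 and 260 CPM, hepatocytes 299 and 301 CPM, and B cells were lowest with 42.8 and 31.9 CPM. The order of hepatocytes and T cells differed between the libraries. Eif2ak3, which encodes PERK, was highest in B cells, at 450 CPM in KO-labelled and 446 CPM in WT. NK/ILC1 cells had 190 and 179 CPM of Eif2ak3, hepatocytes had 29.7 and 33.1 CPM, and cDC were lowest with 14.1 and 15.03 CPM. Atf6 was highest in cDC, at 395 and 370 CPM, and in pDC, at 375 and 345 CPM, and the intervals of these 2 classes overlapped. B cells had 257 CPM of Atf6 in each library, and hepatocytes had 164 and 175 CPM. The highest class was thus a different one for each sensor.

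**Figure D2:**
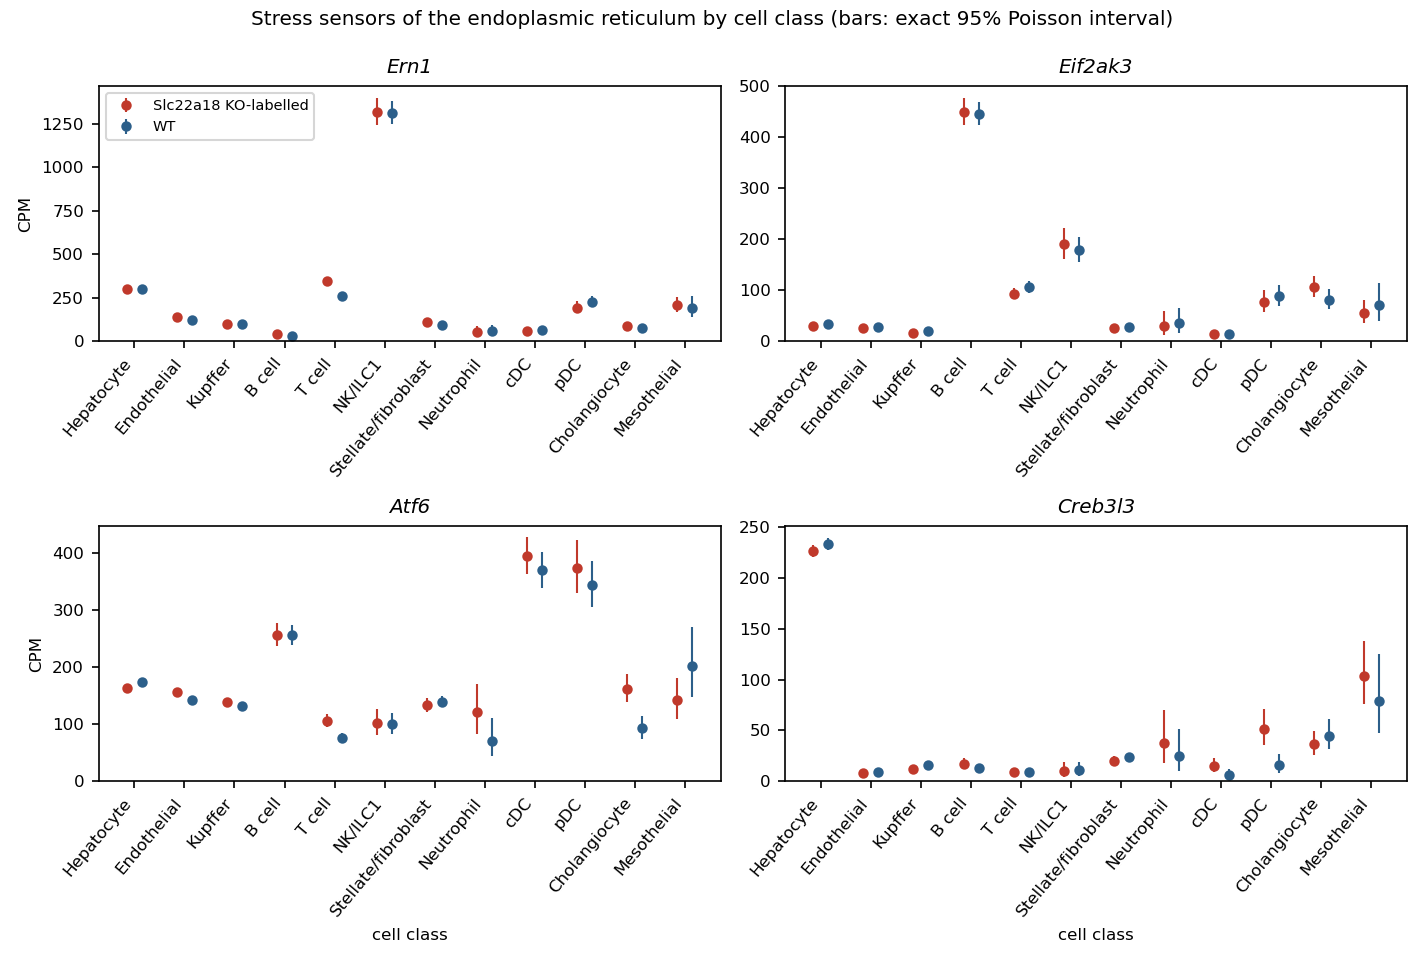
CPM (vertical axes, linear from 0) of Ern1, Eif2ak3, Atf6 and Creb3l3 in 12 cell classes, KO-labelled left of WT; bars are exact 95% Poisson intervals of counting error. Ern1 peaks in NK/ILC1 cells, Eif2ak3 in B cells, Atf6 in cDC and pDC and Creb3l3 in hepatocytes, in both libraries.

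Creb3l3 marked hepatocytes among the transcription factors. It had 226 CPM (221 to 232) in KO-labelled and 234 CPM (228 to 240) in WT hepatocytes. Endothelial cells, which are not known to express it, had 7.94 and 9.17 CPM, so levels of this size in other classes can be background of free RNA. With each cell thinned to 2000 UMIs, Creb3l3 was found in 37.7% of KO-labelled and 37.7% of WT hepatocytes and in 1.70% and 2.03% of endothelial cells; unthinned, the hepatocyte shares were 66.2% and 61.9%. Xbp1 was highest in pDC, at 207 CPM in KO-labelled and 187 CPM in WT. Hepatocytes held rank 2 of 12 for Xbp1 in KO-labelled (163 CPM) and rank 5 in WT (92.3 CPM). Atf4, which encodes the translation-controlled factor downstream of PERK, spanned 64.4 to 186 CPM over the classes in KO-labelled and 69.4 to 158 CPM in WT. Ddit3, the gene for the pro-apoptotic factor CHOP, was highest in neutrophils, with 64.4 and 64.2 CPM.

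The outputs of the stress response split by cell type. Trib3, a pseudokinase gene induced by ATF4 and CHOP, had 13.2 CPM in KO-labelled and 17.98 CPM in WT hepatocytes. Its level was 4.29 and 4.98 CPM in endothelial cells and 1.15 and 0.955 CPM in Kupffer cells. Ppp1r15a, which encodes GADD34, the phosphatase subunit that reverses the PERK signal, showed the opposite pattern. It reached 484 and 453 CPM in endothelial cells and was lowest in hepatocytes, with 14.4 and 19.5 CPM. Ppp1r15a is also known to respond to tissue dissociation.

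Among chaperones, Hspa5 was highest in Kupffer cells, the resident macrophages, with 616 CPM in KO-labelled and 651 CPM in WT, and lowest in hepatocytes, with 86.5 and 113 CPM. Calr, the gene of the glycoprotein chaperone calreticulin, had 532 and 509 CPM in Kupffer cells and 98.1 and 137 CPM in hepatocytes. Hsp90b1 was highest in stellate cells or fibroblasts, with 743 and 698 CPM. Sdf2l1, whose product is part of a BiP complex, was highest in cDC, with 117 and 144 CPM. Manf, which encodes a secreted factor that binds BiP, and Creld2, a disulfide isomerase-like factor, were highest in pDC, with 201 and 261 CPM of Manf. Among disulfide isomerases, Pdia3 was highest in stellate cells or fibroblasts, at 376 and 366 CPM.

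The degradation genes Sel1l and Derl2 were highest in hepatocytes of both libraries. Sel1l, the adaptor of the HRD1 ubiquitin ligase, had 144 CPM in KO-labelled and 130 CPM in WT hepatocytes, and Derl2, a channel component, had 94.1 and 92.9 CPM. Syvn1, the gene of HRD1 itself, was highest in B cells, with 39.1 and 36.0 CPM, followed by hepatocytes with 31.0 and 31.2 CPM. Herpud1, which recruits substrates to HRD1, was highest in pDC, with 348 and 311 CPM, and had 249 and 309 CPM in hepatocytes. Derl3 was rare, with 21 and 19 UMIs in B cells (8.73 and 5.56 CPM) and 13 and 9 UMIs in hepatocytes. For translocation, Sec61b, a subunit of the protein-conducting channel, was highest in pDC, with 564 and 603 CPM, and Ssr1, a translocon-associated subunit, likewise with 156 and 150 CPM.

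The hepatocyte levels were averages over clusters that differed in level. The sources used here do not say whether intronic reads were counted, and the part of such reads in the differences between clusters was not tested. Of 6 hepatocyte clusters, 4 were rich in the nuclear RNA Malat1 (above 10000 CPM, a limit set after the data were seen) and held 76.4% of KO-labelled and 69.6% of WT hepatocytes. The other 2 were poor in Malat1, with 1786 and 1759 CPM against 37830 and 42024 CPM in the rich ones. Members were not used for clustering. Of 32 measured members, 11 were at least 1.5-fold higher in Malat1-poor clusters of both libraries, where 19.2% of 12897 genes were, and 10 were at least 1.5-fold lower, where 56.9% were. The median poor-over-rich ratio was 1.02 in KO-labelled and 1.08 in WT for the members, against 0.427 and 0.444 for all genes.

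By role, the higher calls were 7 of 11 chaperones, 2 of 4 disulfide isomerases and both translocation genes, where 19.2% of all genes were. The lower calls were 3 of 3 sensors, 3 of 4 transcription factors and 4 of 6 degradation genes, where 56.9% of all genes were. Atf4, Ddit3, Edem1 and Herpud1 were called lower but had ratios above the medians of all genes, 0.427 in KO-labelled and 0.444 in WT. Neither call was reached by Canx, Hyou1, Dnajc3, Hsp90b1, Pdia3 and Pdia4, among others. All 3 sensors were lower in Malat1-poor clusters: Ern1 had 27.5 CPM in the poor and 354 CPM in the rich clusters of KO-labelled, and 37.1 and 390 CPM in WT. Atf6, Eif2ak3, Sel1l and Syvn1 were also lower there, with ratios between 0.118 (Atf6) and 0.208 (Eif2ak3) in KO-labelled and up to 0.272 (Eif2ak3) in WT. The largest ratios were those of Sec61b, Sdf2l1 and Calr. Sec61b had 656 CPM in the poor and 23.1 CPM in the rich clusters of KO-labelled, a 28.4-fold difference, and 648 and 26.7 CPM in WT, a 24.3-fold difference. Sdf2l1 was 10.8-fold and 9.75-fold higher in the poor clusters, Calr 4.57-fold and 4.86-fold, Pdia6 2.99-fold and 2.73-fold, and P4hb, a subunit of prolyl hydroxylase, 2.66-fold and 2.56-fold. The 2 Malat1-poor clusters were unlike each other for chaperones. Within cluster 19, one of the Malat1-poor clusters, Hspa5 had 367 CPM in KO-labelled and 372 CPM in WT, whereas within cluster 21, the other, it had 65.8 and 80.8 CPM, no more than in most Malat1-rich clusters. Hsp90b1 had 935 and 896 CPM in cluster 19 and 123 and 150 CPM in cluster 21. The cells of cluster 19 were shallow, with a median of 917 UMIs against 4296 in cluster 21. Their median mitochondrial share of UMIs was 3.90%, against 0.619% in cluster 21 and at most 1.49% in the Malat1-rich clusters.

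**Figure D3:**
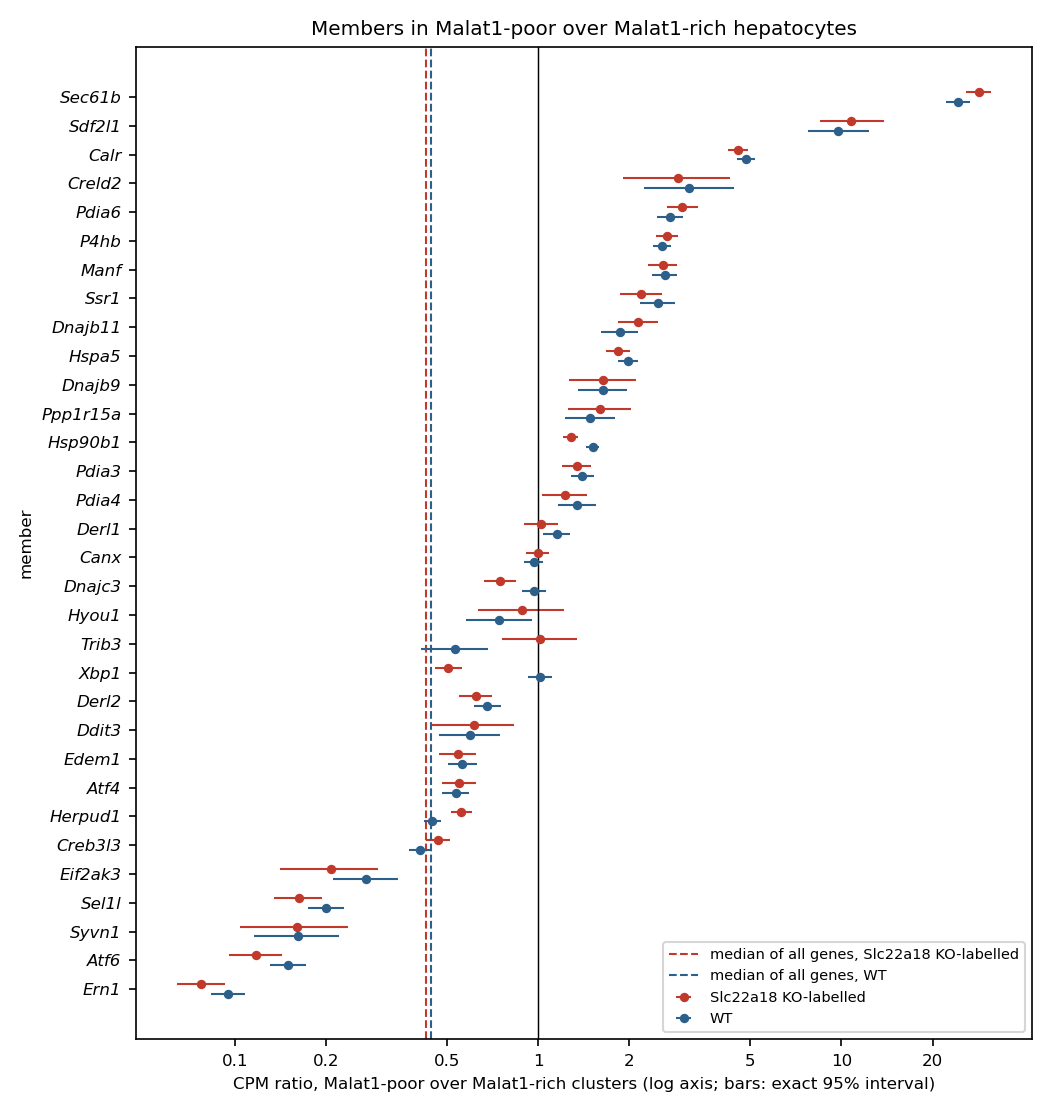
CPM ratio of each measured member in Malat1-poor over Malat1-rich hepatocyte clusters (horizontal log axis), KO-labelled above WT; bars are exact 95% intervals of counting error and dashed lines the medians of all genes (0.427 and 0.444). Sec61b, Sdf2l1 and Calr lie far to the right and Ern1, Atf6 and Syvn1 far to the left in both libraries; Xbp1 and Trib3 differ between the libraries.

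Position along the lobule gave few calls for these genes. A zonal index was built from landmark genes that are not members, and hepatocytes were cut into 3 zones of like size; 93 of 6416 hepatocytes had too few landmark UMIs, and 481 lay within 0.02 of a limit. With an index made without it, Cyp2e1, a pericentral enzyme, was 9.72-fold and 15.3-fold higher in the pericentral than in the periportal zone. No member was at least 1.5-fold pericentral in both libraries, where 6.85% of 11802 genes were, and Sec61b alone was periportal, where 8.96% were. Sec61b had a pericentral-over-periportal ratio of 0.332 in KO-labelled and 0.467 in WT. Malat1-poor cells gave 11.3% of the UMIs of the pericentral zone and 34.0% of those of the periportal zone in KO-labelled, and 22.1% and 37.2% in WT. Within the Malat1-rich clusters the Sec61b ratio was 1.29 (0.989 to 1.69) and 0.863 (0.683 to 1.09), and within the poor ones 0.776 and 0.716, so its call was not seen in either. No member was called within the rich clusters, where 3.3% of 11207 genes were pericentral and 3.19% periportal.

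Over both Malat1-poor clusters, 11 of the 25 measured members were pericentral in both libraries, where 16.7% of 6092 genes were, among them Hsp90b1 (2.89 in KO-labelled and 2.23 in WT), Hspa5 (2.37 and 1.74) and Calr (2.49 and 1.64). Periportal were none of them, where 4.81% of genes were. Within cluster 19 alone and within cluster 21 alone, none was called in either direction, of 23 and 21 measured. The pericentral zone held relatively more cells of cluster 19, which was high in these chaperones. In cluster 19, 8.84% of genes were pericentral and 3.65% periportal, and in cluster 21, 3.91% and 2.43%, so counts of 0 are near those shares. Canx was called periportal in cluster 4, where 0.215% of 7921 genes were, and where the pericentral zone had 11 and 10 cells and no Canx UMI. In cluster 12 no ratio could be formed, since it had no periportal cells. Some differences fell short of a call but had the same side and an interval off 1 in both libraries. Over all hepatocytes, with the clusters mixed, these were pericentral for Hsp90b1, Atf4, Atf6, Eif2ak3, Pdia4, Canx, Sel1l, Edem1 and Creb3l3. They were periportal for Ern1, Pdia6, Derl2 and Trib3. Within the Malat1-rich clusters Ern1 was also higher periportally, with ratios of 0.603 (0.568 to 0.639) in KO-labelled and 0.672 (0.632 to 0.714) in WT. Within cluster 15 alone its ratios were 0.666 and 0.779, and within cluster 30 alone 0.671 and 0.543, with all 4 intervals below 1.

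Between genotypes, most members were slightly lower in KO-labelled than in WT hepatocytes, and Xbp1 was higher. There were 3169 KO-labelled and 3247 WT hepatocytes. Of 32 measured members, 29 had a KO-labelled over WT ratio below 1 and 24 had an interval wholly below 1, where 39.2% and 15.4% of all genes did. The median log2 ratio was -0.21 for the members and 0.06 for all genes. A size rule (at least 50 UMIs in all, a ratio of at least 1.5, an interval off 1, and detection in 5% or more of the cells of the library with the higher level) was passed by Xbp1 as higher, where 1.1% of 14636 genes passed, and by Dnajb9 as lower, where 0.697% did. At a ratio of at least 2 no member passed, where 0.287% of genes were higher and 0.137% lower.

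Xbp1 had 4332 UMIs in KO-labelled and 2433 UMIs in WT hepatocytes, or 163 CPM (158 to 168) and 92.3 CPM (88.6 to 96.0), a ratio of 1.77 (1.68 to 1.86). It was found in 57.4% and 39.1% of hepatocytes, and in 27.8% and 15.9% after thinning to 2000 UMIs, when 403 and 542 shallower cells were left out. The ratio was 1.71 in the periportal, 1.65 in the middle and 2.06 in the pericentral zone. It was not uniform over clusters. In the Malat1-rich clusters Xbp1 had 178 CPM in KO-labelled and 91.96 CPM in WT, a ratio of 1.94 (1.83 to 2.05) that passed where 1.06% of genes did, and each of the 4 clusters lay between 1.67 and 2.43. In the Malat1-poor clusters it had 90.2 and 93.2 CPM, a ratio of 0.968 (0.852 to 1.10), with 1.06 in cluster 19 and 0.963 in cluster 21. In WT the rich and poor clusters had like levels of Xbp1, whereas in KO-labelled the rich ones had more. The unnamed cluster 17 also had more Xbp1, with 154 CPM in KO-labelled and 85.8 CPM in WT.

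**Figure D4:**
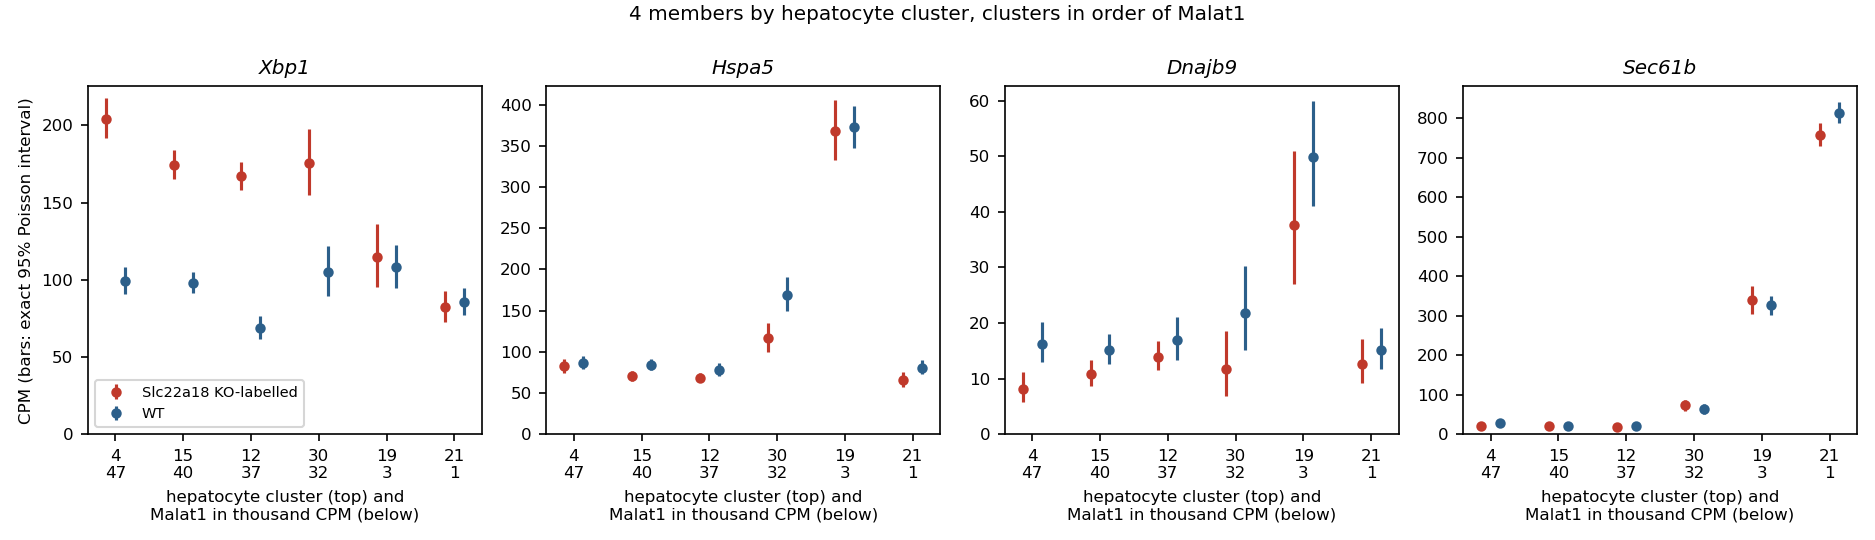
CPM (vertical axes, linear from 0) of Xbp1, Hspa5, Dnajb9 and Sec61b in the 6 hepatocyte clusters, ordered by Malat1 from high to low, KO-labelled left of WT; bars are exact 95% Poisson intervals. Xbp1 is higher in KO-labelled in the 4 clusters at the left and overlaps WT in clusters 19 and 21, and Sec61b is high only in those 2 clusters.

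Of the factors tied to Xbp1, its splicing enzyme gene Ern1 had 299 and 301 CPM, a ratio of 0.993 (0.963 to 1.02). Within the Malat1-rich clusters Ern1 had 354 and 390 CPM (0.906), and within the poor ones 27.5 and 37.1 CPM (0.740). Dnajb9, the gene of the BiP cochaperone ERdj4 and a known target of spliced XBP1, had 337 UMIs in KO-labelled and 503 UMIs in WT, or 12.7 and 19.1 CPM. Its ratio of 0.666 (0.578 to 0.766) lay at the edge of the size rule, and it was below 1 in all 6 hepatocyte clusters, between 0.497 and 0.842. Within the Malat1-rich and the Malat1-poor clusters it was 0.698 and 0.699, so it no longer passed the rule. Trib3 passed within the Malat1-rich clusters (0.645), where 0.696% of genes passed as lower, and had a ratio of 1.23 (0.860 to 1.76) in the poor ones. Sel1l was the other member with an interval above 1 over all hepatocytes, at 1.10 (1.05 to 1.16). Its ratio was 1.02 (0.976 to 1.07) within the Malat1-rich and 0.831 (0.660 to 1.04) within the Malat1-poor clusters, so neither interval lay above 1.

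Over all hepatocytes, 11 of 11 chaperones had ratios below 1, with a median of 0.765 and a range from 0.666 to 0.944, and 10 intervals lay below 1. With each of the 6 clusters given the same weight in both libraries, 10 of 11 were below 1 and the median was 0.951. These weights differed between clusters. In cluster 19, which was high in chaperones and held 9.09% of KO-labelled and 12.47% of WT hepatocytes, 7 of 11 were above 1. Cluster 19 gave 1091546 of 26532671 hepatocyte UMIs in KO-labelled and 2267487 of 26369815 in WT. All 4 disulfide isomerases were below 1 over all hepatocytes, with a median of 0.755. With the same cluster weights in both libraries 3 of 4 were, with a median of 0.899. Hspa5 had 86.5 CPM in KO-labelled and 113 CPM in WT, a ratio of 0.765 (0.724 to 0.808). Its ratio was 0.880 with the same cluster weights in both libraries, and below 1 in 6 of 6 clusters, from 0.691 to 0.987. Calr had 98.1 and 137 CPM, a ratio of 0.713, or 0.951 with the same cluster weights in both libraries. Its ratios within clusters ran from 0.773 to 1.06. P4hb (0.752), Pdia3 (0.758) and Pdia6 (0.737) were alike in size over all hepatocytes. With the same cluster weights in both libraries their ratios were 0.907, 0.812 and 0.890. Over all hepatocytes degradation genes stayed closer to 1, with a median of 0.953 over 6 measured genes. With the same cluster weights in both libraries their median was 0.928, between those of disulfide isomerases (0.899) and chaperones (0.951). Herpud1 was lowest of the degradation genes, with 249 CPM in KO-labelled and 309 CPM in WT (0.805). Sec61b had a ratio of 0.703, but 0.866 in the Malat1-rich and 1.01 (0.965 to 1.06) in the poor clusters. The poor clusters held 23.6% of KO-labelled and 30.4% of WT hepatocytes, with 4478604 and 6708725 UMIs. With the same cluster weights in both libraries, Sec61b had a ratio of 0.942 and the members' median log2 ratio was -0.13.

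**Figure D5:**
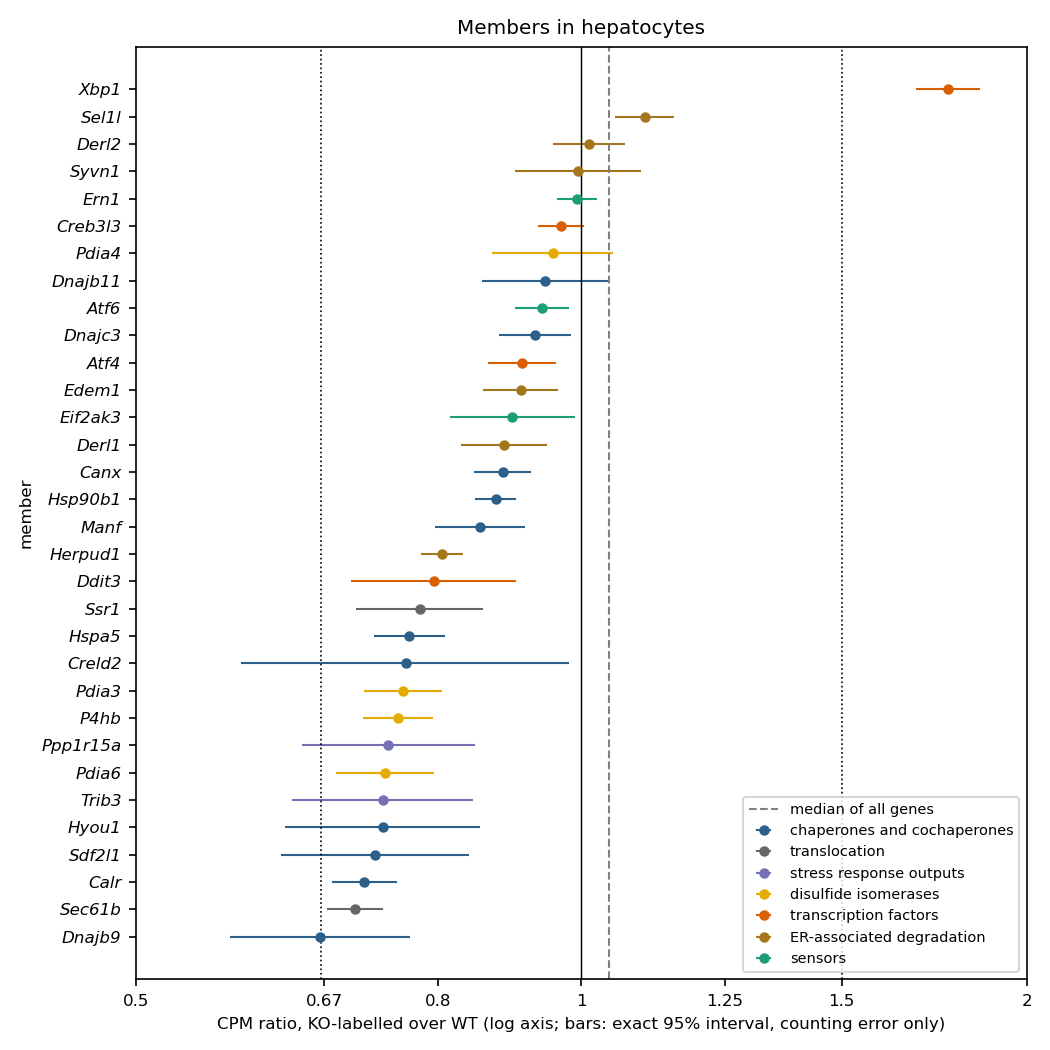
KO-labelled over WT CPM ratio of the 32 measured members in hepatocytes (horizontal log axis), coloured by role and sorted; bars are exact 95% intervals of counting error, dotted lines mark 1.5-fold and the dashed line the median of all genes. Xbp1 (1.77) stands alone at the right and 29 members lie left of 1.

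The direction was then followed in both kinds of hepatocyte. Among 32 measured members, 25 were below 1 in the Malat1-rich and in the Malat1-poor clusters, and 12 had intervals below 1 in both: Hspa5, Hsp90b1, Calr, Canx, Dnajb9, Pdia3, Pdia6, P4hb, Derl1, Atf6, Ern1 and Eif2ak3. Eif2ak3 rested on 32 and 74 UMIs in the poor clusters (0.648, 0.414 to 0.993). Its level in hepatocytes was under 10% of that in B cells, so a part from free RNA was not excluded. Of these 12, 5 (Hspa5, Dnajb9, Pdia3, Derl1 and Atf6) were also below 1 within cluster 19 and within cluster 21. In cluster 19 the intervals of all 5 included 1, and in cluster 21 those of Dnajb9, Derl1 and Atf6 did. The other 7 were above 1 in cluster 19 or in cluster 21, such as P4hb with 0.991 and 1.05 and Ern1 with 0.757 and 1.10. The medians were -0.18 and -0.25 on the log2 scale, against 0.01 and 0.00 for all genes. In the poor clusters no member passed the size rule, where 0.758% of genes passed as higher and 1.85% as lower. In cluster 19 alone the median was 0.06, with 13 of 29 members below 1, and in cluster 21 alone it was -0.16. Members with an ERSE or ERSE-II did not stand apart: the 10 measured ones had ratios from 0.713 to 0.995 with a median of 0.840, and the 18 with a promoter and neither motif had a median of 0.846.

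Other genes of the pathway were described with the same rule over all hepatocytes, where 39.2% of all genes were below 1 (median log2 0.06). These values were not adjusted for the mix of clusters. Of 16 translocon and signal peptide genes beyond the members, 14 were below 1 (median log2 -0.32) and none passed. Of 13 N-glycan transfer and trimming genes, 11 were below 1 (-0.26) and none passed. Of 16 further degradation genes, 8 were below 1 (-0.02) and none passed. The 15 folding enzymes and cochaperones (-0.08), the 19 genes of transport to the Golgi (-0.10) and the 10 further sensors and factors (0.03) had no call. Among 13 measured integrated stress response targets (-0.27), Gdf15, a stress-induced cytokine gene, was lower, with 304 UMIs in KO-labelled and 776 UMIs in WT, a ratio of 0.389.

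Several measures moved with these differences, and their part in them was not tested. Genes known to respond to tissue dissociation were below 1 in 18 of 19 cases in hepatocytes (median log2 -0.38), with summed levels of 1092 CPM in KO-labelled and 1484 CPM in WT, and 4 passed as lower (Nr4a1, Dusp1, Zfp36 and Hspa1b). Cytosolic heat shock genes were below 1 in 14 of 14 cases (-0.37; 1488 and 1851 CPM), sharing some genes with that list. Mitochondrial transcripts had 13868 CPM in KO-labelled and 20217 CPM in WT hepatocytes, and Alb 8614 and 11791 CPM. Of 12 measured fasting genes, 4 passed as lower: G6pc, the gene of the glucose-releasing phosphatase, with 227 and 923 CPM (0.246), Igfbp1 (0.315), Tat (0.461) and Pck1 (0.608). Cyp4a14, a fatty acid hydroxylase gene, passed as higher (1.77). Of 18 clock genes, Bhlhe40 was lower (0.642).

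Outside hepatocytes few members passed the size rule. Xbp1 had 79.2 CPM in KO-labelled and 79.4 CPM in WT endothelial cells (0.998), 94.5 and 88.3 CPM in Kupffer cells (1.07), and 39.0 and 42.9 CPM in T cells (0.908). The Xbp1 ratio was 1.23 in B cells, 0.895 in NK/ILC1 cells and 1.02 in stellate cells or fibroblasts. The hepatocyte ratio of 1.77 was thus not matched in these classes, although no test of that difference between classes was possible. Members passing the size rule numbered 0 of 32 in endothelial cells, where 0.201% of genes passed as higher and 0.251% as lower, 0 of 31 in Kupffer cells (0.761% and 0.728%), 0 of 27 in NK/ILC1 cells (1.72% and 2.87%) and 0 of 31 in stellate cells or fibroblasts (1.22% and 2.1%). The median log2 ratios were -0.01, 0.01, -0.15 and -0.04. In NK/ILC1 cells 19 of 27 members were below 1, where 53.1% of all genes were. Among these members were 9 of 9 chaperones (median ratio 0.827) and 4 of 4 disulfide isomerases (0.756). No member had an interval wholly below 1, where 6.42% of all genes did. The isomerase median in hepatocytes was 0.755, or 0.899 with the same cluster weights in both libraries.

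In lymphocytes 1 member passed. Sdf2l1 was higher in B cells, with 81 UMIs in KO-labelled and 71 UMIs in WT, or 33.7 and 20.8 CPM (1.62, 1.16 to 2.26), where 1.07% of 9224 genes passed as higher and 1.36% as lower. It was also higher in T cells, with 148 and 103 UMIs, or 45.4 and 30.1 CPM (1.51, 1.17 to 1.96), where 5.3% of 9441 genes passed as higher and 1.95% as lower. At a ratio of at least 2 it passed in neither, where 0.0867% of genes in B cells and 1.99% in T cells did. The 3 T cell clusters were mixed unequally, since cluster 20 held 19.2% of KO-labelled and 5.38% of WT T cells, and within them the ratio of Sdf2l1 was 1.11 to 1.24. With each cell weighted alike, its ratio in B cells was 1.11. Its ratio was 0.748 in NK/ILC1 cells and 0.726 in hepatocytes, and none of these differences between classes was tested. In T cells Atf6 had 106 and 75.6 CPM (1.41) and Ern1 345 and 260 CPM (1.33), both short of 1.5-fold; with each cell weighted alike Atf6 passed, at 1.55. The median over 31 measured members was 0.14 in B cells and 0.04 in T cells on the log2 scale.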

How the data were processed

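Single-cell libraries of dissociated liver, 1 per genotype, were made with Chromium 3′ v3 chemistry per the labels' protocols. The authors deposited raw UMI counts for each gene in each cell barcode, not normalized. Cell Ranger 8.0.1 is named in the file headers; STAR and the mm10 build are named in the submitters' processing notes. Whether intronic reads were counted is not stated in the sources used here. The files held 103478998 UMIs over 11741 barcodes in KO-labelled and 105556354 UMIs over 12796 barcodes in WT.

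Cells with at least 500 UMIs, 300 genes and at most 20% mitochondrial UMIs were kept. Scrublet calls (303 and 402 doublets) were removed. Both libraries were clustered together with scanpy 1.11.5 (2000 variable genes, 30 components, 15 neighbours, Leiden resolution 1.0) without integration and without the members. Clusters were named from fixed marker lists; the limits that left mixed clusters unnamed, and the Malat1 limit, were set after the data were seen. Counts were summed per class and library. CPM carry exact Poisson intervals, ratios exact conditional intervals and shares exact binomial intervals, at 95%. For medians, 0.5 was added to each sum. Members with at least 50 UMIs over both libraries counted as measured. The interval and size rule were tested on simulated data. The members and lists were chosen with earlier results of these data known. All members are named; of the other lists, genes past the size rule (up to 4 a direction), otherwise the 2 with the most UMIs, could be named. Promoters are from RefSeq (GRCm38.p6). Alternatives covered scaling, cell weighting, doublets, mitochondrial limit, resolution, depth, zones, fold, UMI minimum, cluster mix and shared barcodes. Protein sequences were not used here.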

Additional observations from a re-analysis of the deposited data

How the results depend on the processing

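Xbp1 stayed higher in KO-labelled hepatocytes in 10 of 11 alternatives, with ratios up to 1.94, and lay on the other side of 1 in the Malat1-poor clusters alone (0.968). The members' median log2 ratio in hepatocytes ran from -0.25 to -0.13 over 13 alternatives. The count of members lower in hepatocytes, 1 as reported (Dnajb9), was 1 in the Malat1-rich clusters (Trib3 in place of Dnajb9), 3 with each cell weighted equally (Dnajb9, Hyou1 and Ppp1r15a) and 0 with doublet calls kept, with at most 10% mitochondrial UMIs, at resolution 0.5, with clusters given the same weights, in the Malat1-poor clusters alone and at a ratio of at least 2; the count higher was 0 in the last 2. For Sdf2l1, the count in B cells was 0 with cells weighted equally, at resolution 0.5 and at a ratio of 2. The count in T cells was 0 without mitochondrial and the 50 most abundant genes in the scaling and with doublets kept. It was also 0 there with the same cluster weights in both libraries, without shared barcodes and at a ratio of 2. With each cell weighted equally, the T cell count was 1, Atf6 in place of Sdf2l1. At resolution 0.5, 1 member was lower in endothelial cells (Creb3l3) and the median in stellate cells or fibroblasts was -0.24; with doublets kept, 2 were lower in NK/ILC1 cells (Sdf2l1 and P4hb). Zone counts were 0 periportal members in the Malat1-rich clusters, and 11 pericentral and 0 periportal members in the Malat1-poor clusters. The Malat1, cluster-weight and shared-barcode alternatives were chosen after seeing the data. Beyond the alternatives' own construction, the cause of each change was not tested. No paired analysis was possible because each genotype has 1 library and no comparison between them has a test. The planned description of protein sequences was not run. Depth limits Derl3 in every class and Trib3 outside hepatocytes and endothelial cells, where few UMIs were counted.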
